A study of Macaca mulatta with 10 samples.

Results

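The SUMO pathway genes SUMO2, SUMO3, SAE1, UBA2, PIAS1, PIAS4, SENP1 and SENP6 were taken by symbol from the 26484 rows of the count table, and all 8 were found and tested. SUMO proteins are small ubiquitin-like proteins that are attached to lysines of other proteins. The E1 enzyme, a pair of SAE1 and UBA2, activates SUMO with ATP, ligases such as the PIAS proteins help to attach it and favour certain targets, and SENP proteases mature SUMO and take it off again. In T cells the modification is known to reach signaling proteins and transcription factors. The question was whether SUMO2 went with the rest of its pathway across the 10 libraries and between the cohorts.

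The cells were Tr1 cells, a regulatory T cell type that makes IL-10, flow-sorted as CD4+CD49b+LAG-3+ cells from blood of 5 Cohort B and 5 Cohort C rhesus macaques, with 1 library per monkey. All monkeys had been made diabetic with streptozotocin, had received allogeneic islets, and had been given transient immunosuppression with an anti-CD40 antibody, rapamycin, tocilizumab and etanercept. Cohort C had in addition been infused with apoptotic donor leukocytes (ADLs), and Cohort B had not. Blood cells were collected at sacrifice, which the labels tie to rejection in Cohort B and to the end of the study at 365 days in Cohort C, and were frozen, thawed and rested overnight before sorting. The study's source data list Cohort B monkeys 13EP12 and 13EP8 without rejection, so coverage and rejection cannot be told apart within Cohort B. Cohort C monkey 15CP1, whose library was the deepest, was followed beyond the planned end by the study's text, so its day of collection is uncertain.

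The libraries differed widely in depth and in the number of genes seen. Total counts ranged from 6076 to 1392157 in Cohort B and from 66485 to 5895609 in Cohort C. Libraries 13EP12 and 13EP8 of Cohort B and 13EP5 and 15CP1 of Cohort C held between 8900 and 15068 genes with a count and are called the 4 well-covered libraries here. The other 6 held between 465 and 4848 genes and are called thin libraries. T cell markers were seen in full in the well-covered libraries, 10 of 10 in each, against at most 5 of 10 in a thin library. The sort markers LAG3 and ITGA2 (CD49b) were at 0 in all 6 thin libraries, and LAG3 was also at 0 in 13EP8. LAG3 had 10 counts in 13EP12, 16 in 13EP5 and 12 in 15CP1. Monocyte markers were present in all 4 well-covered libraries, with 5 to 8 of 8 genes and a sum of 177 to 1236 CPM by library total (counts per 1e6). Platelet markers summed to 265 CPM in 13EP5 and to 4.07 to 21.8 CPM in the other well-covered libraries. In these 4 libraries B cell markers summed to 31.1 to 73.3 CPM, and CD8 or NK cell markers to 18.0 to 216 CPM. The part of all these markers in the results was not tested.

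In the well-covered libraries nearly all of the 8 members were present, and in each thin library at most 1 of them was. A count was recorded in 31 of the 32 values of the 8 members in the well-covered libraries (96.9%) and in 5 of the 48 values in the thin libraries (10.4%). Over all 14168 genes tested the same shares were 75.6% and 15.7%. In the thin libraries 6 close relatives (PIAS2, PIAS3, SENP2, SENP3, SENP5 and SENP7) had a count in 12 of 36 values (33.3%), with SENP5 and SENP7 in 4 libraries each, and 16 further pathway genes had one in 21 of 96 values (21.9%). The 5 values above 0 in thin libraries were spread over 4 members and 5 monkeys. SUMO2 was the member seen in 14HP33, UBA2 was seen in 14HP26 and in 15CP6, SENP6 in 14HP24 and SAE1 in 15CP4, while 14HP31 showed no member.

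The zeros were set beside expected numbers, which take a gene's share of the counts to be the same in thin and well-covered libraries. With the median level of the well-covered libraries, scaled to the counts outside the mitochondrial rRNA-like MTRNR2L genes, more than 3 counts were expected in 30 of the 48 thin values, and 26 of these 30 were at 0. In 14HP33 the expected number for SUMO2 was 14.2 and 147 were counted, while 42.5 were expected for SENP6 and none was counted. In 14HP26 the expected number for UBA2 was 10.2 and 149 were counted. In 15CP4 the expected number for SAE1 was 1.26 and 62 were counted. The member that appeared in each of these 3 libraries was thus far above its expected number, and its partners were at 0. UBA2 in 15CP6 and SENP6 in 14HP24 were instead below theirs, with 7 counts against 43.3 expected and 6 against 35.2. The cause of the zeros was not tested, and fewer cells and less RNA per cell cannot be told apart in these bulk libraries.

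**Figure D1:**
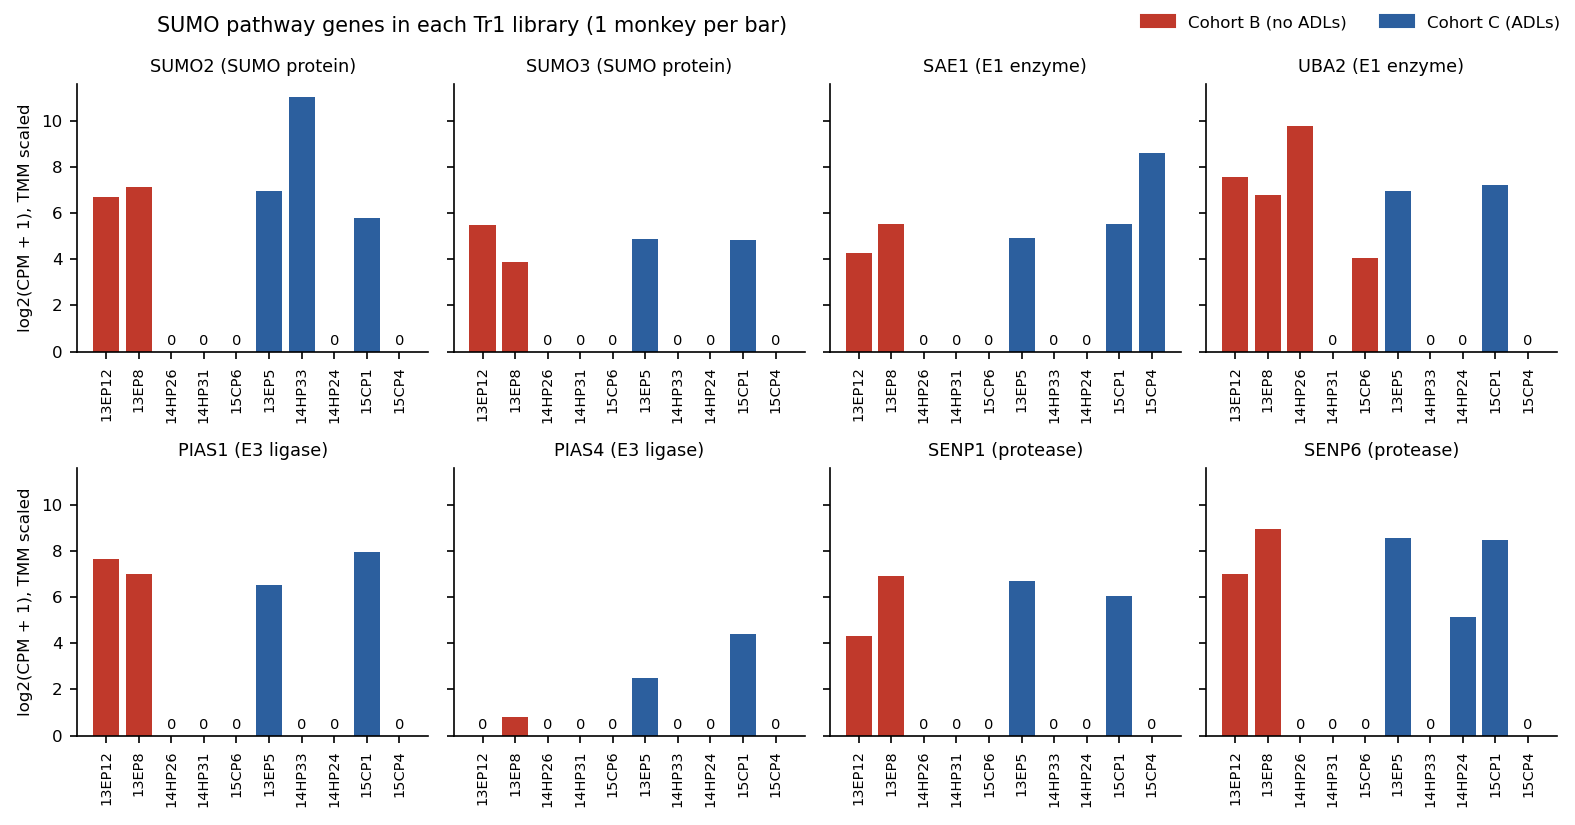
Level of each SUMO pathway gene in each library, as log2(CPM + 1) with TMM-scaled library sizes, in Cohort B (red, 5 monkeys) and Cohort C (blue, 5 monkeys). A 0 marks a library without a count. All members but PIAS4 have bars in the 4 well-covered libraries, and the tallest bars of SUMO2 (11.03 in 14HP33), SAE1 (8.60 in 15CP4) and UBA2 (9.78 in 14HP26) stand in thin libraries.

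SUMO2, which together with SUMO3 forms chains on target proteins, had 118 counts in 13EP12 and 185 in 13EP8 of Cohort B, and 0 in 14HP26, 14HP31 and 15CP6. In Cohort C it had 396 counts in 13EP5, 147 in 14HP33 and 260 in 15CP1, and 0 in 14HP24 and 15CP4. The cohorts thus overlapped, each with libraries at 0. On the log2(CPM + 1) scale, where the library sizes behind CPM were scaled by TMM, a scaling by trimmed means of the ratios between libraries, SUMO2 was 2.77 ± 3.80 (SD, n = 5) in Cohort B and 4.75 ± 4.76 (SD, n = 5) in Cohort C (two-sided exact permutation test, p = 0.603; the smallest p that the design allows is 0.00794). The fitted log2 fold change of Cohort C over Cohort B was 3.15 ± 2.06 (SE; edgeR quasi-likelihood test, adjusted p = 0.464).

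That fold change rested on monkey 14HP33. In this library MTRNR2L genes took 87.0% of the counts. They took 15.6 to 43.4% in the other thin libraries and 3.09 to 3.90% in the well-covered ones. TMM gave 14HP33 a factor of 0.0725, so that the 152 CPM of SUMO2 by library total became 2094 CPM. Without 14HP33 the log2 fold change of SUMO2 was -0.17, and in the 4 well-covered libraries it was -0.59 ± 0.70 (SE; edgeR, adjusted p = 0.851). With library size only in place of TMM it was 0.32. The 8 housekeeping genes together had 50 counts in 14HP33, fewer than the 147 of SUMO2 alone. They had between 2 and 2461 counts in the other thin libraries, and between 13299 and 69187 in the deeper, well-covered ones. None of the 3 sort markers had a count in 14HP33, as in 14HP26, 14HP31 and 15CP4, and 2 of the 10 T cell markers had one. Of the 5 erythroid markers 1, the haemoglobin gene HBB, had 93 counts in 14HP33. HBB had more in 15CP6, with 186 counts, where SUMO2 was at 0. The part of these markers in the SUMO2 value of 14HP33 was not tested.

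SUMO3, the close relative of SUMO2 in sequence and use, was seen only in the well-covered libraries, with 51 counts in 13EP12, 18 in 13EP8, 92 in 13EP5 and 134 in 15CP1. Its log2 fold change was -0.07 ± 2.03 (SE; edgeR, adjusted p = 0.9998), and in the well-covered libraries -0.18 ± 1.30. SUMO2 and SUMO3 are so alike that reads may have been split or shared between them, or with further copies in the genome, so each of their levels is uncertain.

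The subunits of the E1 enzyme did not appear together in the thin libraries. SAE1, its adenylation partner subunit, had 21 counts in 13EP12, 59 in 13EP8, 94 in 13EP5, 217 in 15CP1 and 62 in 15CP4, and 0 in the other 5 libraries. UBA2, the subunit that holds the active cysteine, had 221 counts in 13EP12, 142 in 13EP8, 149 in 14HP26, 7 in 15CP6, 401 in 13EP5 and 721 in 15CP1, and 0 in the other 4. In the well-covered libraries UBA2 made up 70.6 to 91.3% of the pair's counts. It made up 100% in 14HP26 (149 of 149 counts, exact 95% interval 97.6 to 100%) and 0% in 15CP4 (0 of 62, at most 5.78%), and these intervals cover counting error only.

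The cohort values of the E1 subunits pointed in opposite directions and did not pass the test. The log2 fold change of SAE1 was 2.72 ± 2.17 (SE; edgeR, adjusted p = 0.657), and it was 0.48 without 15CP4 and 0.06 ± 1.18 in the well-covered libraries. That of UBA2 was -2.09 ± 2.02 (SE; edgeR, adjusted p = 0.810), and it was -0.53 without 14HP26 and -0.28 ± 0.59 in the well-covered libraries. Each of these values thus rested mainly on a single thin library, as that of SUMO2 did.

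**Figure D2:**
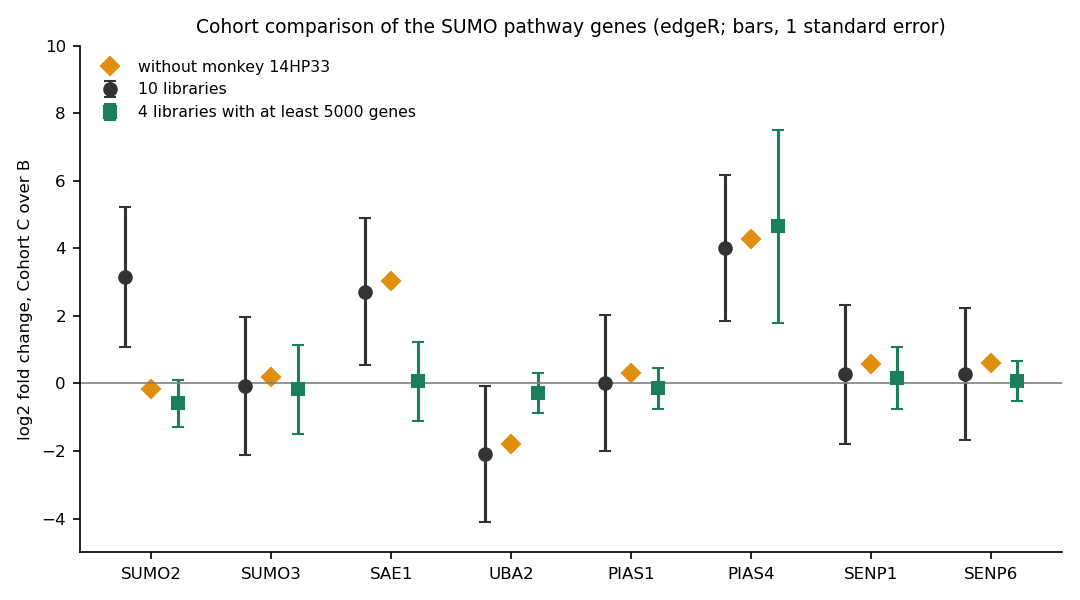
Log2 fold change of Cohort C over Cohort B for each SUMO pathway gene, from edgeR with all 10 libraries (black circles), without monkey 14HP33 (orange diamonds, drawn without error) and in the 4 well-covered libraries (green squares); bars are 1 SE. SUMO2 moves from 3.15 to -0.17 when 14HP33 is left out, and in the well-covered libraries every member except PIAS4 lies between -0.59 and 0.16.

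Among the ligases, PIAS1, a nuclear ligase of the PIAS family, was seen only in the well-covered libraries. It had 231 counts in 13EP12, 169 in 13EP8, 292 in 13EP5 and 1186 in 15CP1. Its log2 fold change was 0.02 ± 2.01 (SE; edgeR, adjusted p = 0.9998), and its range in the well-covered libraries, from 91.0 CPM in 13EP5 to 246 CPM in 15CP1, lay within Cohort C. PIAS4, also a nuclear ligase, was the scarcest member, with 1 count in 13EP8, 15 in 13EP5 and 98 in 15CP1 and none elsewhere.

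With all 10 libraries PIAS4 had the largest fold change of the members, at 4.01 ± 2.16 (log2, SE; edgeR, adjusted p = 0.275) and 4.65 ± 2.85 in the well-covered libraries (adjusted p = 0.7999). Summed over libraries and set against their totals, its 113 counts in Cohort C and 1 in Cohort B give a ratio of 34.3, with an interval of 6.03 to 1366 that covers counting error only. Both libraries with more than 1 count were the deepest, and 86.0% of all PIAS4 counts lay in 15CP1. Without 15CP1 its log2 fold change was 2.12, below that of SUMO2 (3.46) and SAE1 (2.90) in the same fit, and without 13EP8 it was 5.73. The exact permutation test gave p = 0.444 for the difference in log2(CPM + 1). PIAS1 outnumbered PIAS4 in each well-covered library, with 92.4 to 100% of the pair's counts. PIAS2 had a log2 fold change of -2.15 ± 2.09 and PIAS3 of -0.46 ± 2.01 (SE; edgeR, adjusted p = 0.813 and 0.9998), and the value of PIAS2 was 0.07 in the well-covered libraries.

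Of the proteases, SENP6, which trims SUMO2 and SUMO3 chains, had the most counts of all members. It had 148 counts in 13EP12, 650 in 13EP8, 1214 in 13EP5, 6 in 14HP24 and 1700 in 15CP1, and 0 in the other 5 libraries. SENP1, which matures SUMO and releases it from targets, had 22 counts in 13EP12, 156 in 13EP8, 335 in 13EP5 and 320 in 15CP1, and 0 in all thin libraries. Library 13EP12 was low for both, at 128 CPM of SENP6 and 19.1 CPM of SENP1, against at least 353 and 66.4 CPM in the other well-covered libraries. SENP6 made up 78.4% of the pair's counts in 13EP5 (exact 95% interval 76.2 to 80.4%) and 87.1% in 13EP12 (81.1 to 91.7%), the lowest and highest shares of the well-covered libraries, and these differed by more than counting error.

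The log2 fold change of SENP1 was 0.27 ± 2.05 and that of SENP6 0.28 ± 1.95 (SE; edgeR, adjusted p = 0.9998 for each). In the well-covered libraries they were 0.16 ± 0.92 and 0.07 ± 0.60. Among the other SENP genes, SENP2 (0.37), SENP5 (2.71) and SENP7 (-0.39) also did not pass the test. SENP5 was seen in all 5 Cohort C libraries and in 3 of Cohort B, and its log2(CPM + 1) of 6.74 ± 1.75 against 3.23 ± 3.03 (SD, n = 5 each) gave the smallest permutation p of the 14 members and close relatives (exact, two-sided p = 0.0556, not adjusted). In the well-covered libraries its log2 fold change was 0.32. SENP3 was at -3.57 with all libraries and at 6.01 ± 4.30 in the well-covered ones, on 75 counts in all, 46 of them in 15CP6, and its counts are uncertain because it overlaps a read-through gene.

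Across all 10 libraries 0 of the 8 members were called between the cohorts at an unadjusted p below 0.01 together with a change of 1.5-fold or more, beside 6.43% of all genes tested by edgeR. At an adjusted p under 0.05 it was 0 of 8 beside 0% of all genes. No member had an unadjusted p under 0.05, by edgeR or by the exact permutation test, while by edgeR 2923 of the 14168 genes tested did. Of the members, 6 had a positive and 2 a negative log2 fold change, with a median of 0.27 beside 0.16 over all genes, and with library size only these medians were 0.14 and -0.11. In the well-covered libraries 0 of 8 were called, beside 0.881% of all genes, and the members' median was -0.04 beside 0.32. The standard errors of about 2 log2 units in the fit of 10 libraries leave room for sizeable differences in either direction.

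The rest of the pathway was also not called. None of the 6 close relatives was called, with 2 positive and 4 negative and a median of -0.43. Of the 16 further pathway genes, covering other ligases, proteases, SUMO-targeted ubiquitin ligases and proteins of the nuclear bodies, 0 were called, with 10 positive and 6 negative and a median of 0.48. NSMCE2, the SUMO ligase of the SMC5/6 complex, was the only gene of the 30 members, relatives and further genes with an unadjusted p under 0.05 (edgeR log2 fold change 5.60 ± 2.26 SE, adjusted p = 0.141). Among all 14168 genes tested, 2923 had such a p, so 1 of 30 is no excess. NSMCE2 was named for this p. It had 48 counts in 13EP5 and 35 in 15CP1 and none in the other 8 libraries. Against 3 counts over the Cohort B libraries together, its pooled counts were at least 8.40-fold higher per total count in Cohort C. This bound covers counting error only, not the spread between monkeys, and rests on 13EP5 and 15CP1. It comes from the same counts for which NSMCE2 was named, so it adds no support. In the well-covered libraries the log2 fold change of NSMCE2 was 7.87 ± 3.74 (SE; edgeR, adjusted p = 0.7999).

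The share of SUMO2 in the members' counts does not depend on library totals. The share was 14.5% in 13EP12 (exact 95% interval 12.2 to 17.1%), 13.4% in 13EP8 (11.7 to 15.3%) and 13.9% in 13EP5 (12.7 to 15.3%). These 3 monkeys of both cohorts lay within each other's counting error. In 15CP1 the share was lower, at 5.61% (4.96 to 6.31%), and the level of SUMO2 was also lowest there, at 54.0 CPM against 102 to 141 CPM in the other well-covered libraries. Shares of some other members varied as widely over these 4 libraries, from 18.2 to 47.1% for SENP6, from 10.3 to 28.4% for PIAS1, from 10.3 to 27.2% for UBA2 and from 2.71 to 11.8% for SENP1. That of SAE1 varied less, from 2.59 to 4.68%. The level of SUMO2 varied 2.62-fold there, less than that of SUMO3 (3.22-fold), PIAS1 (2.70-fold), SENP1 (6.25-fold) and SENP6 (3.87-fold). It varied more than that of SAE1 (2.48-fold) and UBA2 (1.77-fold).

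In 14HP33 the share was 100%, from 147 of 147 counts (97.5 to 100%). It was 0% in 14HP26 (0 of 149, at most 2.45%), in 15CP4 (0 of 62, at most 5.78%), and in 15CP6 and 14HP24 with only 7 and 6 counts, and 14HP31 had no member count. The mean share was 6.98 ± 8.08% (SD, n = 4) in Cohort B and 23.9 ± 42.9% (SD, n = 5) in Cohort C. The difference of 16.9 percentage points was smaller than the spread within Cohort C, and without 14HP33 it was -2.10 points. It was not tested because the members were chosen with results known.

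**Figure D3:**
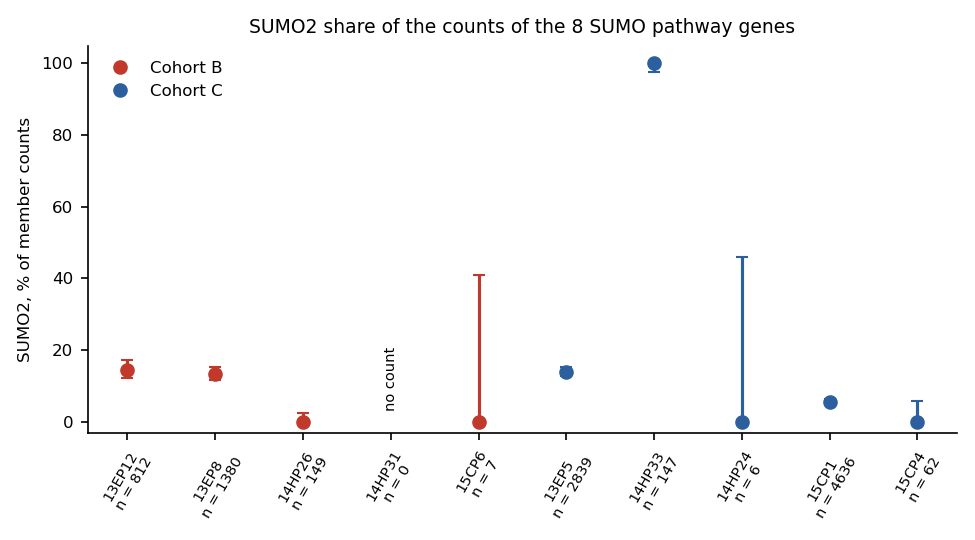
Share of SUMO2 in the summed counts of the 8 SUMO pathway genes in each library (percent, with exact 95% binomial intervals for counting error; n is the number of member counts), with Cohort B in red and Cohort C in blue. Libraries 13EP12, 13EP8 and 13EP5 lie between 13.4 and 14.5%, 15CP1 at 5.61%, and 14HP33 at 100%.

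Likeness to SUMO2 over the 10 libraries was described by Pearson's r of log2(CPM + 1), for the 9686 genes with more than 3 counts in at least 3 libraries. PIAS4 missed this minimum. SUMO3 (0.58), PIAS1 (0.58) and SENP1 (0.58) were closest among the members, SENP6 was at 0.49, and SAE1 (0.21) and UBA2 (0.21) were farthest. Their median was 0.53 beside 0.41 over all ranked genes. Without 14HP33 the median of the members was 0.94, from 0.53 to 0.98, beside 0.73 over all ranked genes. All these values share the libraries' coverage, because most genes are at 0 in the same thin libraries, and they carry no p.

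The 5 genes most like SUMO2 were not of its pathway. The 6 ranked members were all at 0 in 14HP33, where SUMO2 was highest, and this library held down their r. The top of the ranking therefore cannot show how the members went with SUMO2 elsewhere. They were RPAP3 (0.992), a cochaperone for RNA polymerase assembly, KANSL2 (0.991), of a histone acetyltransferase complex, EIF1B (0.991), akin to a translation initiation factor, PPM1G (0.987), a protein phosphatase, and BNIP2 (0.986). Each had counts in the same 5 libraries as SUMO2, that is in the well-covered ones and in 14HP33, where they had between 24 and 94 counts. The close relatives that met the minimum lay between 0.00 (SENP7) and 0.47 (SENP5).

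Levels of different genes can be set side by side only per length, for which the authors' FPKM values (fragments scaled to exon length and mapped fragments) were used in the well-covered libraries. SUMO2 was first of the 8 members in 13EP8 (209 FPKM) and 13EP5 (1075 FPKM), and second to PIAS1 in 13EP12 (96.4 against 119 FPKM) and in 15CP1 (65.6 against 103.5 FPKM). UBA2 had a higher FPKM than SAE1, and SENP6 than SENP1, in all 4 of these libraries. SENP6, first by counts, was between second and the fourth place per length. PIAS4 was last in 13EP5 and 15CP1 and was listed at 0 in both Cohort B libraries, in 13EP8 together with SUMO3. In 13EP8 SUMO3 had 18 counts and PIAS4 had 1, so a value of 0 FPKM is not an absence of reads. Among these libraries all 8 members had their highest FPKM in 13EP5, but by CPM from the counts no member was highest there. For SUMO2 the counts gave 123 CPM in 13EP5 and 141 CPM in 13EP8, against 1075 and 209 FPKM. The cause of this difference between the measures was not tested. With 2 libraries per cohort the order shows no difference between cohorts. Over all 10 libraries the difference of SUMO2 in log2(FPKM + 1) was 1.81 ± 2.15 (SE; limma, adjusted p = 0.992). None of the 8 members passed an adjusted p under 0.05 among 10307 genes, of which 0 passed in limma and 29 had an unadjusted p under 0.05.

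**Figure D4:**
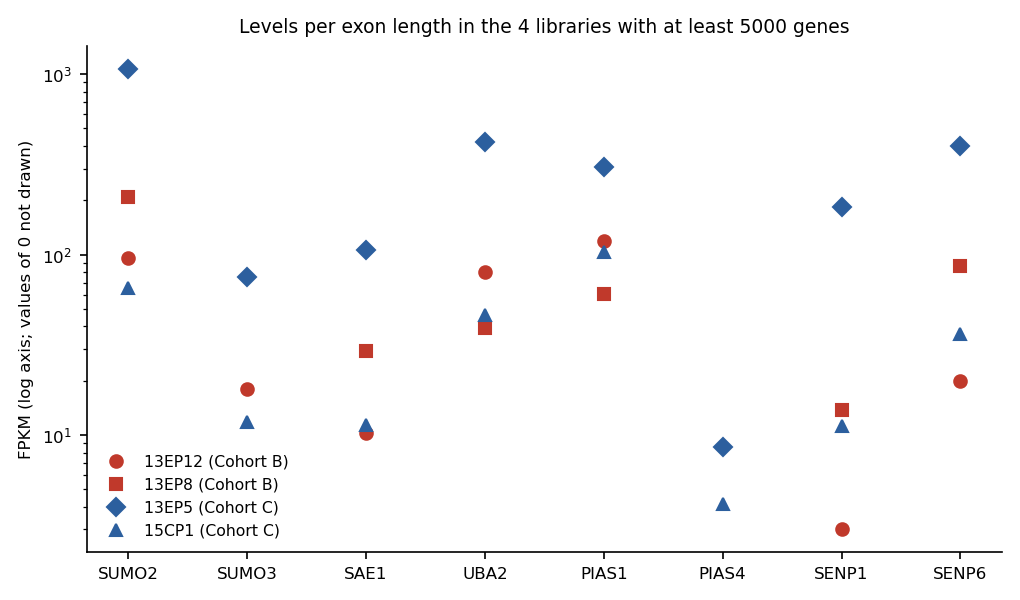
Level per exon length (FPKM, log axis) of the 8 SUMO pathway genes in the 4 well-covered libraries, 13EP12 and 13EP8 of Cohort B (red) and 13EP5 and 15CP1 of Cohort C (blue). Values of 0 FPKM are not drawn (PIAS4 in 13EP12 and 13EP8, SUMO3 in 13EP8). SUMO2 is first or second in each library, from 65.6 to 1075 FPKM.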

How the data were processed

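Tr1 cell RNA of 5 monkeys in each cohort was made into stranded paired-end libraries for sequencing, 1 per monkey, so replicates are separate animals. The authors mapped the reads of macaque cells to the human genome hg38 with HISAT2 2.0.2 and deposited raw counts per gene, for which the options on strand and reads with several matches are not given in the sources used here. A table of FPKM made by the authors with Cuffdiff 2.2.1 was deposited too.

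Counts were fitted with edgeR 4.0.16 (R 4.3.3) (TMM scaling, quasi-likelihood test) over 14168 genes with at least 10 summed counts, and p-values were adjusted by Benjamini-Hochberg over all of them. Standard errors were the log2 fold change divided by the root of its F statistic. Single genes were compared by exact two-sided permutation of log2(CPM + 1) over 252 assignments (scipy 1.17.1, Python 3.11.15). The values log2(FPKM + 1), for genes with a mean of at least 1, were fitted with limma 3.58.1. Log scales with a pseudocount of 1 understate changes of low genes. Intervals (exact Clopper-Pearson for shares, 95%) and the floor of 3 counts cover counting error only, and 3 counts equal 494 CPM by total in 14HP31 and 0.509 in 15CP1. Symbols were used as the files give them, and 2 date-like duplicated symbols were not reported. The scripts were tested on simulated data.

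The 8 members and all gene lists were chosen with earlier results of these data known. Named were the members, 6 close relatives, any of 16 further pathway genes with an unadjusted p under 0.05, and the 5 genes most like SUMO2. Results for some other pathway genes are not reported here. Alternatives were DESeq2 1.42.0, edgeR's exact test, limma-voom, further ways of scaling and filtering, the replicate number as a block, the index suffix of some labels as a covariate, other pseudocounts and leaving out each library. A fit of the libraries without an index suffix, and the difference in log2(CPM + 1) within the well-covered libraries, were added after seeing the data.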

Additional observations from a re-analysis of the deposited data

Results flagged for a closer look

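Of 20 groups of values examined, 2 held a library far from the others by Dixon's criterion. Its rate of about 1 in 20 groups by chance is for values without ties, and does not hold for groups with many zeros. In Cohort B, PIAS4 was at 0.819 on the log2(CPM + 1) scale in 13EP8, from 1 count, while the other 4 libraries were at 0. With those at 0, any count in 13EP8 would have been flagged. In Cohort C, the share of SUMO2 in the members' counts was 100% in 14HP33, and its gap to the nearest library, 13EP5 at 13.9%, was 0.861 of the whole range.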

How the results depend on the processing

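No member passed an adjusted p under 0.05 under any of the alternatives run, and what follows gives changes of direction and of counts, for which the cause was not tested. Of 321 log2 fold changes of named genes under the alternatives, 47 had the opposite sign to the value given above. In the 4 well-covered libraries the sign was opposite for SUMO2 (-0.59), PIAS1 (-0.14), PIAS2 (0.066), PIAS3 (0.29) and SENP3 (6.01), and the difference of SUMO2 in log2(CPM + 1) was -0.55. In the libraries without an index suffix, chosen after seeing the data, it was opposite for SUMO2 (-0.73), PIAS1 (-1.58), SENP1 (-0.18), SENP6 (-0.32), SENP2 (-0.18) and SENP7 (0.27). With limma-voom it was opposite for PIAS1 (-0.43), SENP1 (-0.016) and SENP2 (-1.38), with DESeq2 for SUMO3 (0.037), with library size only and with TMMwsp for PIAS1 (-0.21 and -0.18), with filterByExpr for SENP2 (-0.075), and, where the index suffix was a covariate, for SUMO3 (0.23) and PIAS1 (-0.53).

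The replicate numbers mark different monkeys in each cohort, and same-numbered libraries deviated from their cohort means with correlations of 0.38, -0.29, 0.02, -0.43 and -0.04. With the number as a replicate block, 0 genes were called in place of 911, and PIAS1 (-0.86) and SENP2 (-1.76) had the opposite sign.

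Leaving out each library in turn, the log2 fold change ranged from -0.17 to 3.62 for SUMO2, from -0.88 to 1.38 for SUMO3, from -1.51 to 0.83 for PIAS1, from -0.94 to 2.54 for SENP1 and from -0.57 to 2.08 for SENP6. For the relatives it ranged from -1.16 to 0.019 for PIAS3, from -0.56 to 0.96 for SENP2, from -5.17 to 4.20 for SENP3 and from -0.91 to 0.13 for SENP7. The difference in log2(CPM + 1) ranged from 0.42 to 3.17 for SUMO2, from -0.66 to 0.98 for SUMO3, from -1.30 to 1.14 for PIAS1 and from -0.73 to 1.48 for SENP1. The median likeness of the members to SUMO2 was 0.94 without 14HP33.

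The number of genes called at an unadjusted p under 0.01 and 1.5-fold was 911, and it was 22 with DESeq2, 341 with edgeR's exact test, 67 with limma-voom, 10 with filterByExpr, 98 where the index suffix was a covariate, 117 in the well-covered libraries and 27 in those without an index suffix. Leaving out each library in turn gave from 76 (without 13EP5) to 695 genes, with 143 without 15CP1, 515 without 14HP33, 567 without 14HP24, 583 without 13EP8, 587 without 15CP6 and 597 without 14HP26. At an adjusted p under 0.05 it was 0, against 2 with DESeq2, 1 in the well-covered libraries and 0 to 1 on leaving out a library. Leaving out 13EP5, 15CP1 or 15CP4 gave the 1. With edgeR, 2923 genes had an unadjusted p under 0.05. In the 6 thin libraries 18 of the 48 member values were expected at 3 counts or fewer, and of the other 30, 26 were at 0.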
